A study of Mus musculus with 16 samples.

Results

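The 9 genes studied here code for the transcription factors that most often name the effector and the resident states of CD8+ T cells and were followed across mouse kidney transplants. They are Tbx21, Eomes, Zeb2, Id2, Prdm1, Runx3, Zfp683, Bhlhe40 and Ikzf2. The genes were taken by name, with earlier results of these data known. They are 9 of the 16243 genes listed in all 9 CD8 T cell matrices of the series, and 9 of the 32285 listed in at least one. In each library the level of a gene is given as CPM, its unique molecular identifiers (UMIs, each a counted transcript) per 1000000 UMIs, over the cells that carried at least 1 UMI of Cd8a or Cd8b1, the 2 chains of the CD8 coreceptor. The share of cells with at least 1 UMI of a gene was counted after every cell had been thinned to 1000 UMIs. Natural killer (NK) cells of naive spleen and of the rejecting kidney, taken from the 2 matrices that hold all sorted cells, served as a reference.

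The cells were viable CD45+ leukocytes sorted from kidney allografts and spleens of male wild-type mice and profiled with 10x Genomics 3′ libraries. In the acceptance model a DBA/2J kidney was placed in a C57BL/6J recipient, without immunosuppression. In the rejection model a C57BL/6J kidney was placed in a DBA/2J recipient, so that rejection and recipient strain cannot be told apart, although the sample labels name C57BL/6J for every sample. The groups are naive spleen (5 libraries), recipient spleen at 1 week (3), 3 weeks (5) and 24 weeks (3), accepted graft at 1 week (3), 3 weeks (5) and 24 weeks (3), rejecting recipient spleen at 1 week (3) and rejecting graft at 1 week (2). No other treatment, transgene or deletion is named. A library is a tag in the cell barcodes, which the labels do not tie to an animal, so p-values measure the spread between these libraries.

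T-bet, the product of Tbx21, and its relative eomesodermin, from Eomes, are T-box factors that switch on cytotoxic and interferon-γ genes. Eomesodermin is best known from memory CD8+ T cells and NK cells, and T-bet from effector cells. ZEB2 is a zinc finger repressor that acts with T-bet in terminal effectors, and ID2 has no DNA-binding domain of its own but holds E proteins off DNA. RUNX3 silences Cd4 and sustains the CD8 programme. BLIMP-1 (Prdm1) and its homologue HOBIT (Zfp683) repress genes of tissue exit in resident lymphocytes, BHLHE40 is a basic helix-loop-helix repressor of activated and resident T cells, and HELIOS (Ikzf2) is an Ikaros-family zinc finger protein best known from regulatory T cells.

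The promoters of 4 members are printed as examples of the start regions, for 3 members that were higher in grafts (Tbx21, Prdm1 and Runx3) and the member that was lower there (Eomes). Each runs from 250 bases before to 50 bases after a RefSeq transcript start in build GRCm38.p6, read 5′ to 3′ on the gene's own strand. Capitals mark matches, on either strand, to a RUNX motif (TGTGGT), a ZEB E-box (CACCTG) or an Ikaros-family motif (TGGGAA). None of the 4 holds the T-box motif (GGTGTGA), the PRDM1 motif (GAAAGTG) or the BHLHE40 E-box (CACGTG).
Tbx21, chr11:97115282-97115581, minus strand: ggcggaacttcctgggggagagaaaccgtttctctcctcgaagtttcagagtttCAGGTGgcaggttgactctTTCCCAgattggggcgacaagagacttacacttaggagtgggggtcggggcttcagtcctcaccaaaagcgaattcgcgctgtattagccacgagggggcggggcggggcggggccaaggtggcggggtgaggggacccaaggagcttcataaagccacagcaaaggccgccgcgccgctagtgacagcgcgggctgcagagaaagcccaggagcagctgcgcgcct
Prdm1, chr10:44458699-44458998, minus strand: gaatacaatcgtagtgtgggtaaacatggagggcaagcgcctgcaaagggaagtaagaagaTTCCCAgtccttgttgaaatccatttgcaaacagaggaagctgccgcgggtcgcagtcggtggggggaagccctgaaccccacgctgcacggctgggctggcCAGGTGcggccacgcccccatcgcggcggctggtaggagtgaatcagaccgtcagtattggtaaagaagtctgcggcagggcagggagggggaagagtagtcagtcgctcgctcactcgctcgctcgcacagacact
Runx3, chr4:135120395-135120694, plus strand: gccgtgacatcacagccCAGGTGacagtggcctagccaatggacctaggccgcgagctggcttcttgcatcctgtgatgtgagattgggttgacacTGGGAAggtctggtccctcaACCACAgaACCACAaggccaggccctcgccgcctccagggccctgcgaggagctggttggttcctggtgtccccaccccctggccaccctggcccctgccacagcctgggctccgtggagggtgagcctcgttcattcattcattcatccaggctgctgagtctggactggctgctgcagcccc
Eomes, chr9:118477939-118478238, plus strand: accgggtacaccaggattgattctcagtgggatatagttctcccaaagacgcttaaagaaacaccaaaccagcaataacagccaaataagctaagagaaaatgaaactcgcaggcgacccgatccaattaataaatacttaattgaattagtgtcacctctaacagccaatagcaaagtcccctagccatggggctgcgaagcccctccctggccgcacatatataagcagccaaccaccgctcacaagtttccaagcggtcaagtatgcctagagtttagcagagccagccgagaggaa
The upstream Runx3 promoter holds 2 RUNX matches, whose first bases lie 134 and 126 bases before the start, together with a ZEB E-box and an Ikaros-family match. The Tbx21 and Prdm1 promoters each hold 1 ZEB E-box and 1 Ikaros-family match, and the Eomes promoter holds none of the letters searched. Of 32851 promoters of the same length, 16.8% hold the RUNX letters, 20.2% the ZEB E-box and 25.6% the Ikaros-family letters, against 3.98% for the T-box motif, 4.81% for the PRDM1 motif and 7.15% for the BHLHE40 E-box. The matches share letters with common sequence and are descriptions, not binding sites. The other Runx3 promoter, the Id2 promoter and 3 of the 4 Zeb2 promoters in the table used also hold none of them, so a match does not separate the members that were higher in grafts from Eomes. Zfp683, Bhlhe40 and Ikzf2 have no promoter in that table.

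In the 32 libraries the cells with a CD8 UMI numbered from 56 to 7017, and their summed UMIs from 153266 to 22782080. One rejecting spleen library, R7S2, holds 56 cells, and no pair of libraries shared more than 1.79% of the cell barcodes of the smaller. All 4 T cell marker genes searched were detected in every group. The libraries labelled 24-week graft held 46.2% to 49.2% CD8-UMI cells, in the range of the 1-week and 3-week recipient spleens (41.9% to 51.8%). Those labelled 24-week spleen held 93.4% to 95.3%, against 83.5% to 97.0% in the accepted grafts at 1 and 3 weeks. Naive spleens (95.0% to 97.6%) and rejecting spleens (100%) were also high, and rejecting grafts held 76.6% to 78.1%, so a high share alone does not mark a graft. The summed CPM of 10 kidney parenchyma genes was 0 to 0.474 in the labelled 24-week grafts, where 1 of the 10 was detected, and 2.19 to 3.81 in the labelled 24-week spleens, where 6 were. It was 0.993 to 7.47 in the accepted grafts of 1 and 3 weeks. In the recipient spleens of those times it was 0 to 0.668, but their matrices list 3 and 4 of the 10 genes and the rest count as 0, so those sums are not equivalent. The rejecting matrices list all 10 genes, and there the sum was 0.383 to 1.54 CPM in grafts and 0 to 1.26 CPM in spleens. A low sum alone therefore does not mark a spleen. Set beside the accepted grafts of 1 and 3 weeks, both measures go against the labels of these 6 libraries. Whether the labels are exchanged was not tested. They are called by label throughout and tested only against each other.

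Tbx21 (ENSMUSG00000001444.2, chr11:97098071-97115331, minus strand) was scarce in naive spleen, at 6.63, 8.07, 6.50, 5.99 and 9.63 CPM. In the accepted grafts it stood at 55.1, 50.0 and 44.0 CPM at 1 week and at 63.2, 63.6, 68.4, 66.4 and 65.4 CPM at 3 weeks. The recipient spleens gave 12, 15.1 and 21.9 CPM at 1 week and 10.5, 10.5, 8.41, 13.7 and 8.03 CPM at 3 weeks. Every accepted graft library thus lay above every accepted spleen library of these 2 times. The rejecting grafts reached 108.8 and 86.7 CPM, the highest of the 9 groups, and the rejecting spleens were uneven at 30.2, 52.2 and 21.2 CPM. The libraries labelled 24-week spleen held 79.9, 55.1 and 65.8 CPM, and those labelled 24-week graft 8.72, 10.7 and 5.92 CPM. In the order of group means, the labelled 24-week spleen and the 3-week graft overlapped, as did the 3-week spleen, the labelled 24-week graft and naive spleen.

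Eomes (ENSMUSG00000032446.14, chr9:118478212-118486132, plus strand), the other T-box member, ran the opposite way. Naive spleen held 45.3, 48.4, 54.5, 50.0 and 44.7 CPM, and the recipient spleens 32.4, 36.3 and 31.2 CPM at 1 week and 68.6, 39.2, 55.7, 55.9 and 37.3 CPM at 3 weeks. The accepted grafts fell to 10.2, 7.33 and 7.29 CPM at 1 week. At 3 weeks 4 of the 5 grafts stood at 15.7, 7.44, 9.15 and 9.94 CPM, and the library TK1 at 30.3 CPM. The rejecting grafts held 22.1 and 18.4 CPM and the rejecting spleens 31.5, 26.1 and 80.2 CPM. In the 24-week libraries the ranges overlapped, with 27.0, 51.8 and 32.9 CPM under the spleen label and 25.5, 50.1 and 37.7 CPM under the graft label. The 6 groups with the highest means, all of them spleens or labelled 24-week libraries, each overlapped the next of the 6 in the order. The other 3 graft groups had lower means, and the highest 3-week accepted graft, TK1, lay within the ranges of the rejecting spleens and the labelled 24-week libraries.

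Runx3 (ENSMUSG00000070691.10, chr4:135120652-135177990, plus strand) was already present in naive spleen, at 200.8 to 233.6 CPM with a median of 211.4. The 1-week grafts were almost identical to each other at 174.0, 176.8 and 175.5 CPM, and the 3-week grafts held 565.2, 733.5, 713.0, 592.6 and 648.2 CPM. The rejecting grafts, also taken at 1 week, held 715.2 and 738.5 CPM, the second just above the highest 3-week accepted graft. The 1-week recipient spleens were low, at 82.9, 87.9 and 119.3 CPM, and the 3-week recipient spleens (215.6 to 233.1 CPM) overlapped naive spleen. The rejecting spleens spread from 182.5 through 347.8 to 411.1 CPM. Under the 24-week labels the spleens held 315.2, 246.3 and 278.2 CPM and the grafts 88.9, 103.2 and 120.8 CPM.

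Id2 (ENSMUSG00000020644.9, chr12:25093799-25097140, minus strand) differed by tissue and by time. It went from 74.1 to 102.4 CPM in naive spleen, through 116.6, 116.6 and 121.9 CPM in 1-week spleens and 109.0 to 140.2 CPM in 3-week spleens, to 246.8, 212.1 and 175.3 CPM in the 1-week grafts. The 3-week grafts held 715.3, 581.8, 601.0, 694.7 and 604.6 CPM, above every other library of the series. The rejecting grafts, at 349.4 and 328.2 CPM, lay between the accepted grafts of the 2 times without touching either range. The rejecting spleens held 83.1, 150.1 and 155.8 CPM. The labelled 24-week spleens reached 544.3, 496.1 and 535.7 CPM and the labelled 24-week grafts 110.2, 130.4 and 124.4 CPM.

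Zeb2 (ENSMUSG00000026872.17, chr2:44983632-45117395, minus strand) was highest in the rejecting grafts, at 104.1 and 75.9 CPM. The accepted grafts held 33.1, 20.2 and 21.1 CPM at 1 week and 34.5, 38.0, 31.6, 30.9 and 36.8 CPM at 3 weeks. The recipient spleens held 20.6, 17.8 and 8.98 CPM at 1 week and 19.7, 10.5, 11.2, 12.2 and 25 CPM at 3 weeks, and the 1-week spleens overlapped the 1-week grafts. Naive spleen stood at 6.63, 15, 5.25, 7.85 and 6.69 CPM, and the rejecting spleens at 18.9, 26.1 and 30.2 CPM. The labelled 24-week spleens held 56.0, 30.2 and 38.0 CPM and the labelled 24-week grafts 4.53, 11.3 and 7.11 CPM. Between the rejecting graft and the naive spleen, most neighbouring groups in the order overlapped.

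Prdm1 (ENSMUSG00000038151.13, chr10:44437177-44528501, minus strand) was scarce in spleens and present in every graft library of 1 and 3 weeks. Naive spleen held 1.99, 0.576, 2.00, 1.86 and 2.41 CPM, which is 37 UMIs in all. The 1-week spleens held 3.31, 3.78 and 4.76 CPM and the 1-week grafts 34.7, 36.0 and 36.7 CPM. At 3 weeks the spleens held 6.45, 4.35, 2.80, 3.05 and 3.78 CPM and the grafts 67.3, 61.4, 51.5, 51.6 and 48.5 CPM. The rejecting grafts, at 54.9 and 56.8 CPM, lay inside the range of the 3-week accepted grafts, and the rejecting spleens (3.78, 13.0 and 6.05 CPM) rest on 9 UMIs. The labelled 24-week spleens held 49.4, 37.8 and 46.6 CPM and the labelled 24-week grafts 3.49, 3.36 and 2.13 CPM.

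Zfp683 (ENSMUSG00000049410.8, chr4:134053838-134058996, plus strand) had no UMI among the 20571089 UMIs of naive spleen CD8+ cells, an allowance of at most 3 UMIs by the floor used here. The 3 spleen libraries at 1 week held 4 UMIs between them and the 5 at 3 weeks 1 UMI. The accepted grafts held 7.06, 6.11 and 2.46 CPM at 1 week (219 UMIs) and 16.4, 14.4, 15.1, 21.0 and 17.6 CPM at 3 weeks (876 UMIs). The rejecting grafts held 9.23 and 3.07 CPM, from 26 UMIs, and the rejecting spleens 1 UMI. Of the 24-week libraries, those labelled spleen held 14.8, 11.4 and 11 CPM (156 UMIs) and those labelled graft 2 UMIs. Each accepted graft library stood above each recipient spleen library of 1 and 3 weeks.

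Bhlhe40 (ENSMUSG00000030103.11, chr6:108660629-108666925, plus strand) was at 0.500 to 3.21 CPM in naive spleen. The 1-week recipient spleens were nearly alike at 15.4, 14.9 and 15.1 CPM, and the 3-week spleens held 6.79, 8.71, 9.21, 9.15 and 7.09 CPM. The 1-week grafts, at 120.1, 120.2 and 124.4 CPM, fell within the range of the 3-week grafts, which held 116.4, 163.8, 148.2, 152.2 and 163.8 CPM. The 2 rejecting grafts differed from each other, at 133.9 and 55.6 CPM, and the rejecting spleens held 13.8, 13.0 and 6.05 CPM. The libraries labelled 24-week spleen were the highest of all at 294.8, 210.5 and 229.7 CPM, and those labelled 24-week graft held 4.88, 11.3 and 4.97 CPM.

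Ikzf2 (ENSMUSG00000025997.13, chr1:69531214-69687245, minus strand) parted the 2 models in spleen. Recipient spleens of accepted grafts held 48.5, 57.4 and 64.2 CPM at 1 week and 64.2, 53.3, 61.7, 54.4 and 55.3 CPM at 3 weeks, above naive spleen at 14.8, 28.5, 28.0, 32.6 and 20.1 CPM. The rejecting spleens, at 22.7, 26.1 and 18.1 CPM from 34 UMIs in all, lay within the range of naive spleen. Their recipients were DBA/2J and no naive DBA/2J spleen is named, so this is not read as a lack of change. In grafts the order of CPM was turned, with 106.1, 92.5 and 109.3 CPM in the accepted grafts at 1 week, 91.1, 117.2, 111.0, 109.0 and 133.6 CPM at 3 weeks, and 200.6 and 187.9 CPM in the rejecting grafts. Other scalings of the genes, given below, weakened or reversed this difference between the 1-week grafts. The labelled 24-week spleens held 118.7, 98.1 and 128.5 CPM and the labelled 24-week grafts 35.2, 41.2 and 32.9 CPM.

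**Figure D1:**
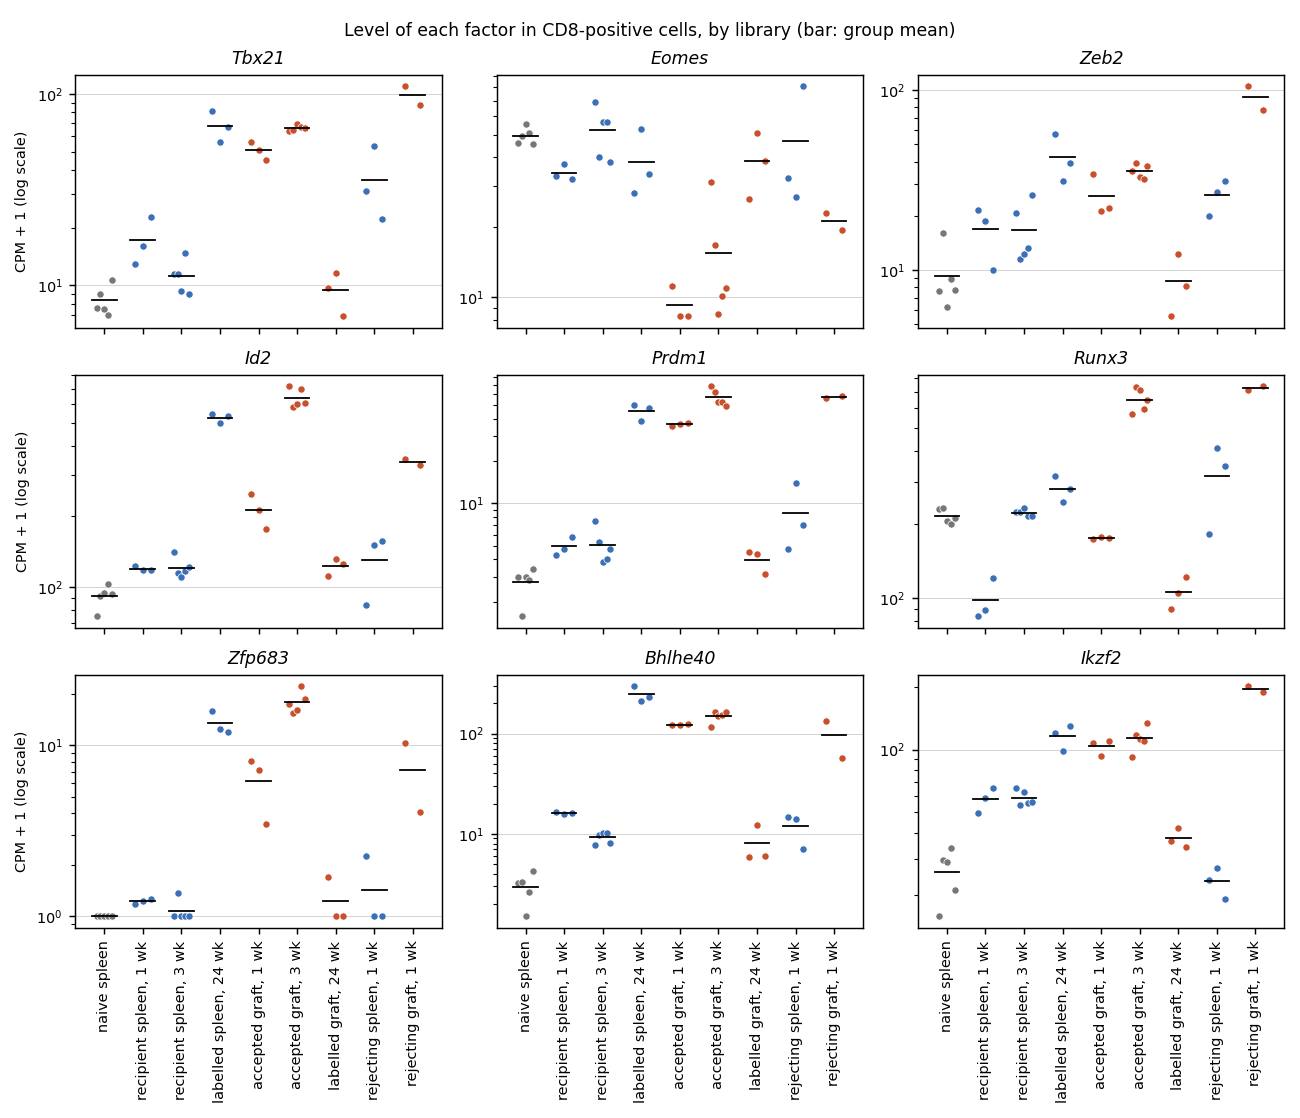
Level of each of the 9 factors in cells with a CD8 UMI, as CPM + 1 on a log axis, 1 panel a gene. Each point is a library, grey for naive spleen, blue for recipient spleens and orange for grafts, and the bar is the group mean. For Eomes the 1-week accepted graft points lie below every spleen point, and for the other 8 genes the libraries labelled 24-week spleen lie above those labelled 24-week graft.

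Graft and recipient spleen were compared first, to ask how the cells in the transplant differ from those in the spleen. At 3 weeks all 9 members differed, with 8 higher in the graft and Eomes lower. At 1 week the same contrast called 7 members higher and Eomes lower, and Zeb2 did not pass. Calls are from edgeR's quasi-likelihood test on UMIs summed per library, with p adjusted by Benjamini-Hochberg across every gene tested and a threshold of 0.05. Of all genes tested, 48.7% were called higher and 16.8% lower in the graft at 3 weeks, and 30% higher and 19.4% lower at 1 week, so that a call alone says little about the members and the size of each change is what is read. The median gene was 0.28 higher in the graft on the log2 scale at 3 weeks and 0.08 higher at 1 week, and with TMM factors, which centre the genes, 30.5% were higher and 28.1% lower at 3 weeks. Nuclear-retained RNA (Malat1 and Neat1) summed to 35721 to 38707 CPM in the 3-week grafts and 18915 to 23024 CPM in the 3-week spleens, against overlapping sums of 6876 to 13750 and 10719 to 14202 CPM at 1 week, and its part in the differences was not tested. These are sums over cells, in which fewer cells of a type and less RNA per cell cannot be told apart.

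Prdm1, Bhlhe40, Zfp683, Id2 and Runx3 were higher in the graft at both times. Prdm1 was higher in the graft by 3.72 ± 0.18 at 3 weeks (log2 ± SE, adjusted p = 4.46e-13) and by 3.15 ± 0.16 at 1 week (adjusted p = 5.00e-08). Bhlhe40 was higher by 4.19 ± 0.13 (adjusted p = 7.58e-16) and 3.00 ± 0.11 (adjusted p = 7.84e-09). For Zfp683, whose spleen libraries hold few UMIs, the ratio of summed CPM is given instead. It was 207 at 3 weeks with an exact 95% counting interval of 37.1 to 8198, and 19.9 at 1 week with an interval of 7.65 to 73.6, and both comparisons were called higher. Id2 was higher by 2.41 ± 0.08 at 3 weeks (adjusted p = 1.97e-15) and by 0.84 ± 0.12 at 1 week (adjusted p = 0.000182). Runx3 was higher by 1.55 ± 0.07 (adjusted p = 5.07e-13) and 0.85 ± 0.13 (adjusted p = 0.000225). In these 5 genes, graft and spleen libraries did not overlap at either time. The share of all genes without overlap was not counted, here or in the contrasts below. A lack of overlap is therefore not read as particular to the members.

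The 2 T-box factors moved apart. Tbx21 was higher in the graft by 2.68 ± 0.11 at 3 weeks (adjusted p = 3.25e-14) and by 1.58 ± 0.19 at 1 week (adjusted p = 3.27e-05). Eomes was lower, by -1.82 ± 0.29 (adjusted p = 1.56e-05) and -2.02 ± 0.16 (adjusted p = 1.43e-06), with no overlap at either time even with TK1 included. Zeb2, the partner of T-bet, was higher by 1.13 ± 0.16 at 3 weeks (adjusted p = 5.33e-06) and by 0.67 ± 0.27 at 1 week (adjusted p = 0.0565). With the library number as a block, the 1-week difference of Zeb2 was 0.70 and was called (adjusted p = 0.000462). Cells free of 5 genes of other cell types (Cd4, Cd79a, Lyz2, Csf1r and Ncr1) gave 1.77 for Zeb2 at 1 week (adjusted p = 0.00125), and cells thinned to 1000 UMIs gave 0.43 at 3 weeks (adjusted p = 0.0570). B cell genes summed to 463 to 960 CPM in the CD8-UMI cells of the 1-week spleens and to 9.01 to 10.2 CPM in those of the 1-week grafts, and 12.1% of naive spleen B cells carried a Zeb2 UMI at 1000 UMIs. All 7 myeloid genes were detected in each of these groups and summed to 196 to 309 CPM in the 3-week grafts against 60.8 to 95.1 CPM in the 3-week spleens, and to 173 to 256 against 139 to 144 CPM at 1 week. Csf1r-positive phagocytes held 851 ± 103 CPM of Zeb2 in naive spleen (SD, n = 5). The part of B cell and myeloid RNA in the differences was not tested. Ikzf2 was higher in the graft by 0.95 ± 0.10 (adjusted p = 4.06e-08) and 0.85 ± 0.12 (adjusted p = 0.000141). The 3 regulatory T cell genes searched (Foxp3, Ctla4 and Il2ra) moved with it, summing to 126 to 144 CPM in the 3-week grafts against 13.2 to 20.03 CPM in the spleens, and to 266 to 303 against 37.2 to 49.5 CPM at 1 week. Of these, Foxp3, which defines the type, overlapped at 3 weeks (0.736 to 1.52 against 0 to 1.89 CPM) and did not at 1 week (11.2 to 15.9 against 5.34 to 10.6 CPM), and the part of such cells in the Ikzf2 difference was not tested. Over all cells of the matrices, CD8 UMI or not, the 1-week difference of Ikzf2 was -0.15 and was not called (adjusted p = 0.217).

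**Figure D2:**
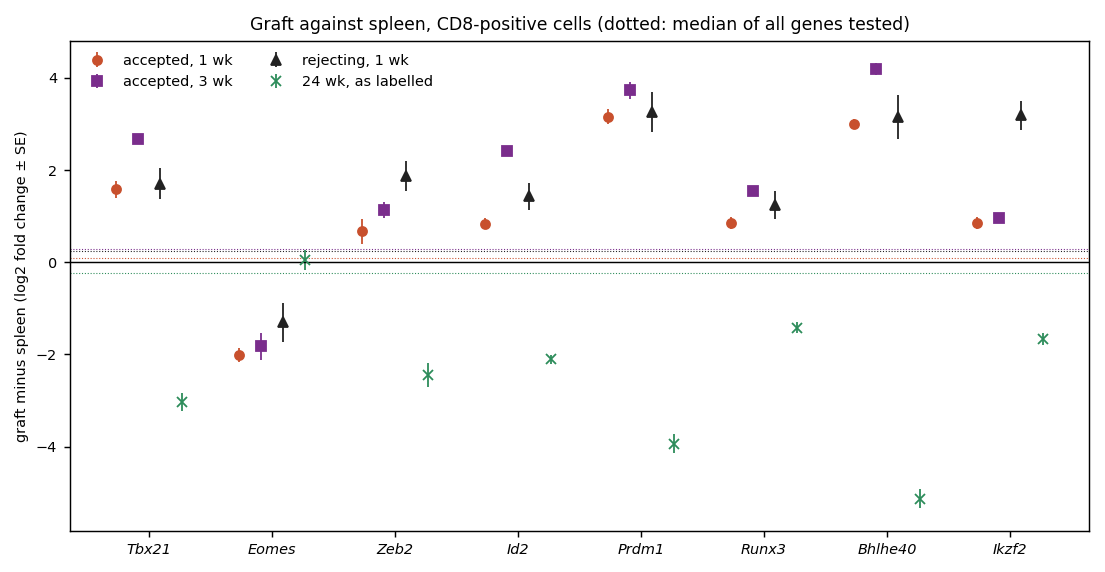
Difference between graft and spleen for 8 of the 9 factors, as log2 fold change ± SE from edgeR, at 1 and 3 weeks of acceptance, in rejection and under the 24-week labels. Zfp683 is not drawn, since it has 0 to 2 UMIs in each recipient spleen library of 1 and 3 weeks and of rejection. Dotted lines are the median of all genes tested in each contrast. Eomes is the 1 gene below 0 in the first 3 contrasts, and the 24-week contrast is turned over for every gene but Eomes, which stands at 0.06.

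The same contrast in rejection rests on 2 graft and 3 spleen libraries. Of the 8 members tested, 7 were higher in the rejecting graft and Eomes was lower. All genes tested gave 11.4% higher and 5.79% lower, or 7.05% and 7.57% with TMM factors. These shares are 937 and 474 genes, and they were lowest without R7S1, at 400 and 249, and highest without R7K2, at 1311 and 582. Without R7S3 both counts also lay more than 1.5 times below, with 259 genes lower. Ikzf2 was higher by 3.18 ± 0.31 (adjusted p = 9.50e-06), Prdm1 by 3.26 ± 0.44 (adjusted p = 0.000164) and Bhlhe40 by 3.15 ± 0.48 (adjusted p = 0.000378). In the rejecting spleens these rest on 34, 9 and 17 UMIs, so their sizes are uncertain. Zeb2 was higher by 1.87 ± 0.33 (adjusted p = 0.00128), Tbx21 by 1.70 ± 0.34 (adjusted p = 0.00306) and Id2 by 1.43 ± 0.29 (adjusted p = 0.00369). Runx3 was higher by 1.25 ± 0.30 (adjusted p = 0.0110), a call lost without the library R7S1 (0.95, adjusted p = 0.0703). Eomes was lower by -1.30 ± 0.42 (adjusted p = 0.0485), and without R7S3, where it stood at 80.2 CPM, the difference was -0.57 (adjusted p = 0.472). Leaving out R7K3, R7S1 or R7S2 also ended that call (adjusted p = 0.0890, 0.0694 and 0.0523). Zfp683 was below the filter on low counts, with 26 UMIs against 1, a ratio of 9.18 with an interval of 1.51 to 376.

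Under the 24-week labels 8 members were lower in the graft-labelled libraries and Eomes did not differ by the test. Of all genes tested 39.1% were lower and 14.7% higher, and 26.3% and 24.3% with TMM factors. Bhlhe40 was lower by -5.13 ± 0.21 (adjusted p = 2.64e-12), Prdm1 by -3.93 ± 0.21 (adjusted p = 7.51e-11) and Tbx21 by -3.03 ± 0.19 (adjusted p = 6.38e-10). Zeb2 was lower by -2.44 ± 0.26, Id2 by -2.11 ± 0.09, Ikzf2 by -1.67 ± 0.12 and Runx3 by -1.42 ± 0.12, with no overlap between the labels. The spleen-labelled libraries held 65.4 times the Zfp683 CPM of the graft-labelled ones, with an interval of 17.8 to 544. Eomes differed by 0.06 ± 0.22 (adjusted p = 0.850). In the spleen-labelled and graft-labelled libraries plasma cell genes summed to 31.1 to 210 and 7.11 to 20.6 CPM, regulatory T cell genes to 152 to 191 and 9.77 to 12.8 CPM, and myeloid genes to 155 to 204 and 64.2 to 72.4 CPM, and their part in the Prdm1, Ikzf2 and Zeb2 differences was not tested. Beside the accepted grafts of 1 and 3 weeks, the share of CD8-UMI cells and the kidney genes go against these labels. No direction between tissues is therefore drawn from these libraries.

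Within the accepted graft, 3 weeks was compared with 1 week to follow the cells over time. On library totals 8 of 9 members were higher at 3 weeks and none was lower. Of all genes tested 53.6% were higher and 21.2% lower, and the median gene was 0.41 higher on the log2 scale. With TMM factors the shares were 35% and 35.4% and the calls among members fell to 4, so that changes are read relative to the median gene. Runx3, the CD8 lineage factor, rose by 1.89 ± 0.10 (adjusted p = 1.03e-09) and Id2, the E protein inhibitor, by 1.60 ± 0.11 (adjusted p = 1.33e-08). Zfp683, the gene for HOBIT, rose by 1.77 ± 0.25 (adjusted p = 1.32e-05). These 3 stayed higher with TMM factors, by 1.5, 1.21 and 1.39, beside 35% of all genes. No library of one time overlapped the other time in these 3, which was not counted over all genes.

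The remaining members were not called higher with TMM factors. Prdm1 was higher by 0.65 ± 0.11 (adjusted p = 7.17e-05) and Tbx21 by 0.40 ± 0.09 (adjusted p = 0.000632), and under TMM factors the differences were 0.26 (adjusted p = 0.0542) and 0.02 (adjusted p = 0.861). Zeb2 was higher by 0.48 ± 0.14 (adjusted p = 0.00708) and Bhlhe40 by 0.29 ± 0.10 (adjusted p = 0.0174), against 0.10 (adjusted p = 0.476) and -0.10 (adjusted p = 0.410) with TMM factors. The call of Bhlhe40 was also lost without the 1-week library 7K1 (adjusted p = 0.0506). Eomes was higher by 0.83 ± 0.36 (adjusted p = 0.0474), and without TK1 by 0.36 (adjusted p = 0.148). The call of Eomes was lost in 5 of the 8 fits that left out a library. Ikzf2 differed by 0.13 ± 0.11 (adjusted p = 0.282), and with TMM factors it was lower at 3 weeks by -0.26 (adjusted p = 0.0381). The 3 regulatory T cell genes summed to 126 to 144 CPM at 3 weeks and 266 to 303 CPM at 1 week, with Foxp3 at 0.736 to 1.52 and 11.2 to 15.9 CPM. Nuclear-retained RNA summed to 35721 to 38707 CPM at 3 weeks and 6876 to 13750 CPM at 1 week, and the part of either in these differences was not tested. When the median shift of genes of similar gene span was taken out, Zeb2 (span 133764 bp) became -0.34 (adjusted p = 0.0192), Prdm1 (91325 bp) -0.08 (adjusted p = 0.512) and Ikzf2 (156032 bp) -0.71 (adjusted p = 6.67e-05).

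The graft change was then set against the change in spleen over the same weeks, as an interaction. Values are the graft difference minus the spleen difference, so a positive value can come from a rise in the graft, a fall in spleen or both. Of all genes tested 24.3% were called positive and 9.48% negative, or 15.3% and 15.5% with TMM factors. Id2 stood at 1.58 ± 0.15 (adjusted p = 3.76e-08), Bhlhe40 at 1.19 ± 0.19 (adjusted p = 5.66e-05), Tbx21 at 1.11 ± 0.22 (adjusted p = 0.000499) and Runx3 at 0.69 ± 0.14 (adjusted p = 0.000781). All 4 held with TMM factors, at 1.40, 1.00, 0.93 and 0.51. For Bhlhe40 and Tbx21 the spleen means fell, from 15.2 to 8.19 CPM and from 16.3 to 10.2 CPM, while the graft means rose. With cells thinned to 1000 UMIs the Bhlhe40 interaction was 0.67 and not called (adjusted p = 0.251). The other 5 did not pass, and for Prdm1 the interaction was 0.58 ± 0.29 (adjusted p = 0.133), or 0.84 (adjusted p = 0.0372) without the spleen library TS1.

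Rejecting and accepted grafts were compared at 1 week. On library totals 7 members were higher in the rejecting graft, beside 47.8% of all genes tested, and none was lower, beside 10.4%. The median gene was 0.68 higher, and with TMM factors 27% of genes were higher and 25.4% lower. Runx3 was higher by 2.05 ± 0.15 (adjusted p = 1.44e-05) and by 1.38 with TMM factors (adjusted p = 0.000250). Zeb2 was higher by 1.86 ± 0.25 (adjusted p = 0.000363) and by 1.20 with TMM factors (adjusted p = 0.00382). Eomes was higher by 1.29 ± 0.25 (adjusted p = 0.00213), and by 0.63 with TMM factors (adjusted p = 0.0444), a call that DESeq2 did not make (0.63, adjusted p = 0.0780). These 3 are the members that stayed higher with TMM factors, beside 27% of all genes.

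The other members called on library totals were not called higher with TMM factors. Tbx21 was higher by 0.98 ± 0.18 (adjusted p = 0.00170), Ikzf2 by 0.92 ± 0.16 (adjusted p = 0.00117), Id2 by 0.68 ± 0.18 (adjusted p = 0.0117) and Prdm1 by 0.64 ± 0.16 (adjusted p = 0.00738). With TMM factors these were 0.31, 0.25, 0.02 and -0.03. Bhlhe40 differed by -0.37 ± 0.31 (adjusted p = 0.335) and was lower with TMM factors, by -1.04 (adjusted p = 0.0328). Without the library R7K2 it was lower on library totals too, by -1.13 (adjusted p = 0.000240). Zfp683 differed by 0.21 ± 0.62 (adjusted p = 0.790), a ratio of 1.24 with an interval of 0.793 to 1.87. Taking out the shift of genes of similar span gave -0.14 for Zeb2 (adjusted p = 0.582), -0.74 for Prdm1 (adjusted p = 0.00783) and -1.10 for Ikzf2 (adjusted p = 0.00129). Under that setting Tbx21, Eomes and Id2 kept their calls as higher, so the members that stay depend on the scaling. Runx3 was higher under each setting run. Myeloid genes summed to 283 to 291 CPM in CD8-UMI cells of the rejecting grafts and 173 to 256 CPM in those of the accepted grafts, and 79.7% of Csf1r-positive phagocytes of the rejecting graft carried a Zeb2 UMI at 1000 UMIs. Nuclear-retained RNA summed to 9708 and 29267 CPM in the 2 rejecting grafts and to 6876 to 13750 CPM in the 1-week accepted grafts. The part of phagocyte and nuclear-retained RNA in the differences was not tested.

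**Figure D3:**
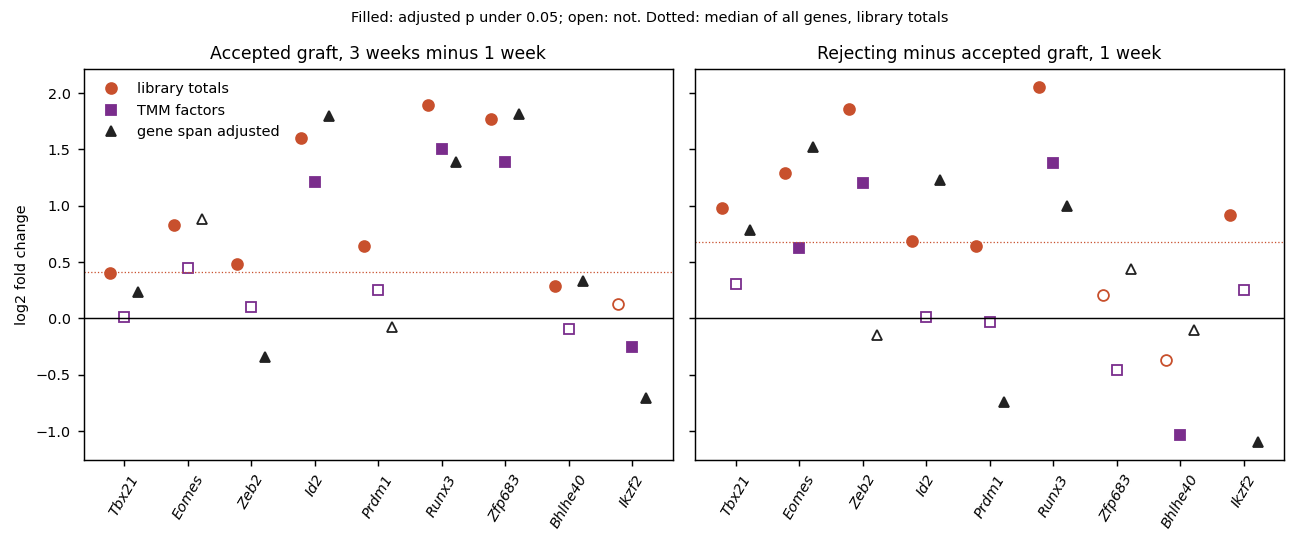
Log2 fold changes of the 9 factors between 3-week and 1-week accepted grafts (left) and between rejecting and accepted grafts at 1 week (right), with library totals (circles), TMM factors (squares) and after taking out the shift of genes of similar gene span (triangles). Filled symbols have an adjusted p under 0.05, and the dotted line is the median of all genes on library totals (0.41 and 0.68). Runx3 keeps filled symbols above 0 under all 3 settings in both panels, and Zeb2, Prdm1 and Ikzf2 go below 0 once gene span is adjusted for.

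Whether the gap between graft and spleen itself differed between the 2 models was tested as an interaction. Ikzf2 was the member that differed. The gap was wider in rejection by 2.34 ± 0.27 (adjusted p = 0.000635), beside 0.302% of all genes tested called with a positive and 0.243% called with a negative difference. These shares are 36 and 29 genes, and leaving out each of the 11 libraries gave 7 to 87 genes in either direction, with 7 in both without R7S1 and the higher counts without a rejecting graft library (56 and 87 without R7K2, 87 and 48 without R7K3). Ikzf2 was called in each of these fits. The means behind it were 194 CPM in the rejecting graft and 22.3 CPM (34 UMIs) in the rejecting spleen, against 103 and 56.7 CPM in acceptance. Regulatory T cell genes summed to 296 to 435 CPM in the rejecting grafts and 73.0 to 78.6 CPM in the rejecting spleens, with Foxp3 at 6.16 to 6.90 and 0 to 3.78 CPM, and their part was not tested. The difference was 2.21 with TMM factors (adjusted p = 0.000906), and all other settings run kept the call. Among the others Zeb2 was at 1.21 ± 0.49 (adjusted p = 0.319), Eomes at 0.68 ± 0.42 (adjusted p = 0.541) and Id2 at 0.61 ± 0.29 (adjusted p = 0.407), and Runx3, Tbx21, Prdm1 and Bhlhe40 lay between 0.15 and 0.42 with standard errors of 0.33 to 0.54. The interaction of Zfp683, at -1.14 ± 2.13, rests on 5 spleen UMIs.

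Recipient spleens were compared with naive spleen to see what changed away from the graft. At 1 week 6 members were higher and 2 lower in recipient spleen, beside 21.1% and 36.5% of all genes tested, or 27.6% and 25.6% with TMM factors. Bhlhe40 was higher by 2.94 ± 0.25 (adjusted p = 3.07e-08), Ikzf2 by 1.20 ± 0.16 (adjusted p = 7.38e-06), Tbx21 by 1.19 ± 0.20 (adjusted p = 7.36e-05) and Prdm1 by 1.15 ± 0.32 (adjusted p = 0.00504). Id2 was higher by 0.39 ± 0.09 (adjusted p = 0.00110). Runx3 was lower by -1.15 ± 0.10 (adjusted p = 6.62e-08) and Eomes by -0.55 ± 0.09 (adjusted p = 7.79e-05). Zeb2 was higher by 0.92 ± 0.28 (adjusted p = 0.00916) with overlapping libraries, a call lost without 7S1 (0.66, adjusted p = 0.0766). In cells free of the 5 genes of other cell types Zeb2 stood at -0.16 (adjusted p = 0.685). B cell genes summed to 463 to 960 CPM in the CD8-UMI cells of these spleens, against 30.0 to 58.5 CPM in naive spleen, and all 5 were detected in both groups. Plasma cells use Prdm1, and 4 plasma cell genes summed to 64.6 to 116 CPM in these spleens against 1.44 to 9.09 CPM in naive spleen, where Sdc1 and Derl3 were at 0. Regulatory T cell genes summed to 37.2 to 49.5 CPM against 3.30 to 5.50 CPM, with Foxp3 at 5.34 to 10.6 and 0 to 1.11 CPM, and myeloid genes to 139 to 144 against 49.6 to 96.2 CPM. Nuclear-retained RNA summed to 10719 to 14202 CPM against 19565 to 24431 CPM. The part of these RNAs in the differences was not tested. With cells thinned to 1000 UMIs 4 members were called in place of 8, 2 were tested and not called, and the rest were below the filter on low counts.

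By 3 weeks fewer members stood apart from naive spleen. Of the 7 tested, 4 were higher and none lower, beside 6.86% and 5.48% of all genes. Bhlhe40 was higher by 2.04 ± 0.28 (adjusted p = 9.17e-06), Ikzf2 by 1.22 ± 0.14 (adjusted p = 3.32e-07) and Id2 by 0.41 ± 0.08 (adjusted p = 0.00158), with no overlap. Zeb2 was higher by 0.94 ± 0.25 (adjusted p = 0.0113), a call lost without TS5 (0.74, adjusted p = 0.0617). B cell genes summed to 120 to 337 CPM in these spleens, against 30.0 to 58.5 CPM in naive spleen, and regulatory T cell genes to 13.2 to 20.03 against 3.30 to 5.50 CPM, with Foxp3 at 0 to 1.89 and 0 to 1.11 CPM. Their part in the Zeb2 and Ikzf2 differences was not tested. Tbx21 differed by 0.48 ± 0.19 (adjusted p = 0.0973), Eomes by 0.09 ± 0.12 (adjusted p = 0.694) and Runx3 by 0.04 ± 0.06 (adjusted p = 0.708). Prdm1 was below the filter on low counts, at 4.09 ± 1.45 CPM (SD, n = 5) against 1.77 ± 0.70 CPM (n = 5), and the libraries of the 2 groups did not overlap. Over all cells of the matrices, CD8 UMI or not, Eomes stood at -0.50 (adjusted p = 0.00835) and Runx3 at -0.28 (adjusted p = 0.00133). In those sums CD8-UMI cells made up 44.0% to 51.8% of the 3-week spleens and 95.0% to 97.6% of naive spleen. Cells with a Cd4 UMI and no CD8 UMI made up 17.4% to 23.0% and 0.307% to 1.23%. These values mix cell types and are not read as a change of CD8+ cells.

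The genes around these factors were followed as 6 lists chosen by name, beside the 48.7% of all genes called higher and 16.8% called lower in the graft at 3 weeks, and the 30% and 19.4% at 1 week. Of the effector genes, 8 of 8 tested were higher in the 3-week graft than in spleen. The granzyme gene Gzmb was higher there by 7.12 ± 0.17 (861 against 5.88 CPM). Of 6 residency genes, 5 were higher, such as Itga1, the CD49a integrin chain, by 7.04 ± 0.11 and the chemokine receptor gene Cxcr6 by 4.34 ± 0.09. The early retention gene Cd69 differed by -0.28 ± 0.12 (adjusted p = 0.0542). All 5 recirculation genes were lower, with the egress receptor gene S1pr1 at -5.04 ± 0.11. The median of the lists was 2.39 for effector genes, 4.27 for residency genes and -5.04 for recirculation genes, against 0.28 over all genes.

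Factors of naive and memory-precursor cells went the opposite way to most members. In the 3-week graft 7 of 9 were lower and 2 higher than in spleen. Tcf7, which codes for TCF-1, was lower by -5.19 ± 0.10 (11.8 against 432 CPM) and Lef1 by -5.77 ± 0.16. At 1 week 6 of 9 were lower, with Tcf7 at -1.89 ± 0.12 and Lef1 at -2.81 ± 0.16. The 12 other effector and resident factors were all higher in the 3-week graft and 11 were higher at 1 week, such as the orphan receptor gene Nr4a2, higher by 4.86 ± 0.11 and 4.05 ± 0.20. Relatives and partners of the members split, with 4 of 9 higher and 4 lower at 3 weeks, and 4 higher and 5 lower at 1 week. In both, the Ikaros gene Ikzf1 was lower (-0.72 ± 0.07 and -0.60 ± 0.10) and its relative Ikzf3 higher (1.67 ± 0.08 and 0.73 ± 0.11).

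Between rejecting and accepted grafts, the relatives of the members gave the highest share of calls among the 6 lists. Of 9 tested, 8 were higher in rejection, beside 47.8% of all genes higher and 10.4% lower, with a median of 2.17 against 0.68 over all genes. Runx2 was higher by 3.01 ± 0.17 (349 against 43.2 CPM), Ikzf3 by 2.26 ± 0.16, Tcf12 by 2.18 ± 0.20 and Ikzf1 by 2.17 ± 0.16. All list values are on library totals. They were not read with TMM factors or the gene span adjustment, which moved several members in this contrast. Of the effector genes 3 of 9 were higher and none lower, with Gzmb at 0.87 ± 0.22. Of 6 residency genes 1 was higher (Itga1, 2.73 ± 0.35) and 2 lower, among them the chemokine gene Xcl1 (-1.54 ± 0.29). Recirculation genes were lower in 4 of 5, with the transcription factor gene Klf2 at -3.59 ± 0.33. Of the naive and memory-precursor factors 5 were higher and 2 lower, with Zeb1, the paralogue of Zeb2, at 3.02 ± 0.25 and Tcf7 at -1.31 ± 0.21. Within the accepted graft, 3 weeks differed from 1 week in all 5 recirculation genes, 4 of them lower, and in all 6 residency genes, 5 of them higher, beside 53.6% of all genes higher and 21.2% lower. Of 9 effector genes 4 were higher and 1 lower, with a median of 0.21 against 0.41 over all genes. Of 12 other effector and resident factors 5 were higher and 4 lower. Naive and memory-precursor factors gave 3 higher and 6 lower of 9, and relatives and partners 6 higher and 0 lower of 9.

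Shares of cells were counted at 1000 UMIs per cell, which left out at most 33 cells of a library. They are descriptions over cells, with the spread over libraries. In the 3-week graft 46.3% ± 3.2 of 21487 CD8-UMI cells had a Runx3 UMI and 41.1% ± 2.4 an Id2 UMI (SD, n = 5). Bhlhe40 was found in 12.9% ± 1.2, Ikzf2 in 9.48% ± 1.30, Tbx21 in 6.10% ± 0.36, Prdm1 in 5.58% ± 0.70, Zeb2 in 3.23% ± 0.27 and Zfp683 in 1.53% ± 0.34. Eomes was found in 1.33% ± 0.90. At 1 week Runx3 was in 16.1% ± 0.5 and Id2 in 18.3% ± 3.0 of 13963 cells (n = 3), and Bhlhe40, at 10.3% ± 1.0, and Ikzf2, at 7.84% ± 1.07, were closer to their 3-week shares. The rejecting graft held Runx3 in 49.5% ± 2.9, Id2 in 26.9% ± 1.4, Ikzf2 in 13.8% ± 0.7, Tbx21 in 9.27% ± 1.12 and Zeb2 in 6.76% ± 2.13 of 1687 cells (n = 2). Without thinning, the Runx3 share was 73.2% in the 3-week graft, 72.9% in the rejecting graft and 57.0% in naive spleen.

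Naive spleen CD8+ cells, with a median of 4320 UMIs before thinning, held Runx3 in 18.8% ± 1.4, Id2 in 8.5% ± 1.4 and Eomes in 3.70% ± 0.70 of 4500 cells (n = 5). B cells of the same spleens, 26877 cells with a median of 2739 UMIs, show what free RNA and low expression give in another type. They held Tbx21 in 0.176%, Eomes in 0.101%, Prdm1 in 0.282%, Bhlhe40 in 1.52% and Ikzf2 in 0.0937% of cells. The naive CD8+ shares of Prdm1 (0.274%) and Bhlhe40 (0.173%) were at or below these, and are not read as expression. B cells do not lack Bhlhe40 (12.6 to 21.3 CPM over 5 libraries), so their share is no clean background for it, and the differences of these 2 genes from naive spleen start from such low levels. Those of Tbx21 (0.641%), Eomes (3.70%) and Ikzf2 (1.96%) were above. Zeb2 was in 12.1% of B cells and in 79.7% of Csf1r-positive phagocytes of the rejecting kidney, so neither of these types lacks it. No naive CD8+ cell of 4500 had a Zfp683 UMI, which at that depth allows up to 0.0667% of cells with one. None of the 26877 B cells had one, which at that depth allows up to 0.0112%.

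NK cells were taken as cells with an Ncr1 UMI and no UMI of Cd3d, Cd3e or Cd3g, 1159 of 47060 cells in naive spleen and 235 of 11948 in the rejecting graft. In naive spleen all 7 NK marker genes were detected, and 84.8% of these cells had a UMI of Klrb1c, against 15.7% in the rejecting graft. The other NK genes outside the gate were lower there too. They were Klre1 (89.5% against 48.5%), Klrk1 (93.4% against 43.0%), Gzma (93.0% against 75.3%), Prf1 (82.7% against 58.7%) and Nkg7 (96.5% against 85.1%). Median depth was 2669 UMIs in naive spleen and 1526 in the rejecting graft, and the reason was not tested. In the rejecting graft 29.4% of them had a UMI of the myeloid gene Lyz2, against 2.33% in naive spleen, so the gate there is less clean. Compared with CD8+ cells, NK cells held more of the T-box factors and Zeb2. In naive spleen NK cells Eomes stood at 398 ± 61 CPM, Tbx21 at 172 ± 8 CPM, Zeb2 at 825 ± 55 CPM and Id2 at 842 ± 73 CPM (SD, n = 5). At 1000 UMIs 32.3% ± 4.0 of naive spleen NK cells had an Eomes UMI, 17.9% ± 2.2 a Tbx21 UMI and 54.7% ± 0.9 a Zeb2 UMI. In the rejecting graft, NK cells stood at 247 CPM against 97.7 CPM in CD8+ cells for Tbx21, 298 against 20.2 CPM for Eomes and 724 against 90.03 CPM for Zeb2.

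Runx3, Ikzf2 and Zfp683 had higher means in rejecting graft CD8+ cells than in either NK set, and no test was made. Runx3 stood at 311 ± 47 CPM in naive spleen NK cells and 360 CPM in rejecting graft NK cells, against 727 CPM in rejecting graft CD8+ cells and 175 CPM in those of the 1-week accepted graft, which lay below both NK sets. Ikzf2 was at 36.0 ± 9.6 CPM and 111 CPM in the 2 NK sets, against 194 CPM in rejecting graft CD8+ cells. Those of the accepted graft held 103 CPM at 1 week and 112 CPM at 3 weeks. Zfp683 was at 0.885 ± 0.814 CPM and 1.97 CPM, against 6.15 CPM in the rejecting graft and 16.9 ± 2.6 CPM in the 3-week accepted graft (n = 5). None of 1150 naive NK cells had a UMI at 1000 UMIs, which at that depth allows up to 0.261% of cells with one, and 3 of 1159 had one before thinning. Prdm1, at 57.3 ± 18.8 and 81.3 CPM, and Bhlhe40, at 155 ± 48 and 99.4 CPM, were of the order of the 3-week graft CD8+ cells (56.1 ± 8.0 and 149 ± 19 CPM). In the rejecting graft 7.95% ± 1.81 of NK cells had an Ikzf2 UMI at 1000 UMIs, against 3.35% ± 1.42 in naive spleen. The 2 NK sets differ in tissue, strain, depth and purity, and no test was made between them.

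**Figure D4:**
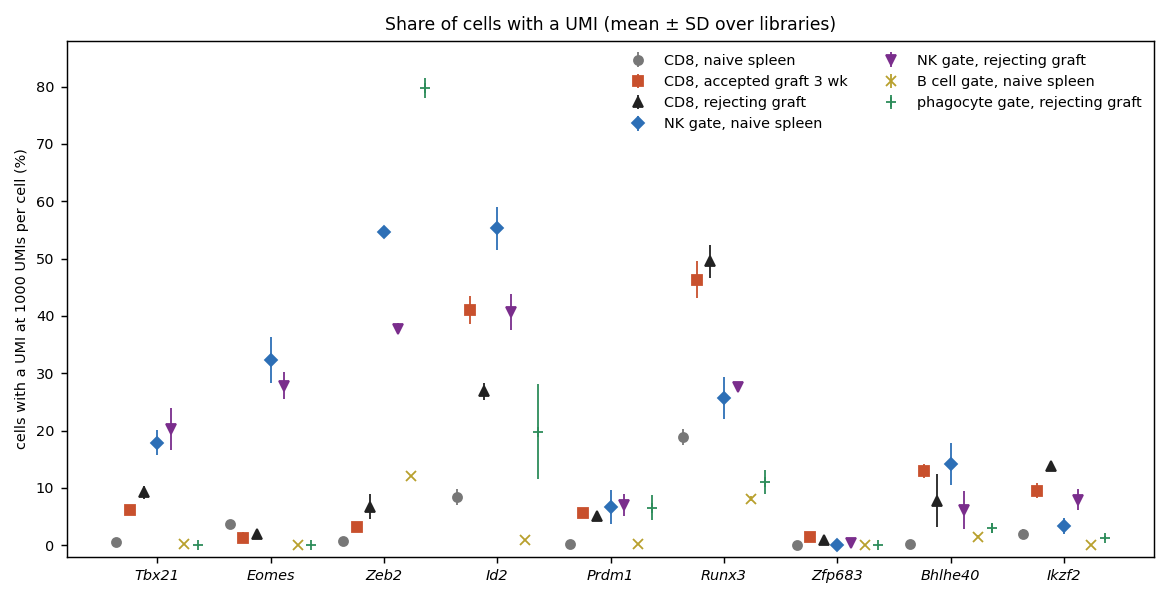
Share of cells with a UMI of each factor at 1000 UMIs per cell, as the mean ± SD over libraries, for CD8-UMI cells of naive spleen, 3-week accepted graft and rejecting graft and for NK, B and phagocyte gates. NK cells (diamonds and downward triangles) lie above all CD8+ groups for Tbx21, Eomes and Zeb2. The means of graft CD8+ cells (squares and upward triangles) lie above those of NK cells for Runx3 and Ikzf2. For Ikzf2 the SD bars of the 3-week graft and of rejecting graft NK cells overlap.

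Within grafts, cells were split by other genes to see how the members vary among CD8+ cells. In the 1-week accepted graft, cells with a UMI of Mki67 or Top2a, genes of dividing cells, were compared with the other cells of the same libraries, beside 26.9% of all genes higher and 14.6% lower, or 21.3% and 20.5% with TMM factors. Ikzf2 was higher in dividing cells by 0.51 ± 0.06 (adjusted p = 4.66e-07), at 120 ± 8 against 83.9 ± 10.0 CPM (SD, n = 3), with no overlap. Zeb2 (-0.31 ± 0.10, adjusted p = 0.0211), Id2 (-0.16 ± 0.05, adjusted p = 0.00711) and Runx3 (-0.14 ± 0.05, adjusted p = 0.0233) were lower. The dividing cells were the deeper ones, with median UMIs of 3777 to 6302 against 1774 to 3278, and with cells thinned to 1000 UMIs only the call of Ikzf2 remained. Without the library 7K1 the calls of Id2 and Runx3 were lost (adjusted p = 0.0594 and 0.168). Without 7K2 that of Runx3 was lost (adjusted p = 0.0682), and without 7K3 that of Zeb2 (adjusted p = 0.357).

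In the 3-week graft, cells with a UMI of Pdcd1, which codes for PD-1, differed from the other cells by small amounts. Of all genes 5.07% were higher and 4.12% lower. Ikzf2 was higher by 0.46 ± 0.04 (adjusted p = 1.13e-12) and Id2 lower by -0.24 ± 0.02 (adjusted p = 5.84e-14), at 600 ± 53 against 708 ± 71 CPM (n = 5). Tbx21 (0.23 ± 0.06), Zeb2 (0.25 ± 0.07), Bhlhe40 (0.15 ± 0.04) and Runx3 (0.07 ± 0.02) were called higher, and Eomes (-0.41 ± 0.11) and Zfp683 (-0.33 ± 0.10) lower. DESeq2 kept the calls of Ikzf2 and Id2 alone, and leaving out a library left 4 to 8 calls, with 5 without TK1, 5 without TK2 and 4 without TK4. Prdm1 differed by -0.01 ± 0.06 (adjusted p = 0.954).

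Cells of the 3-week graft with a UMI of Itgae or Itga1, the CD103 and CD49a integrin chains, and none of Cx3cr1 were set against those with a UMI of Cx3cr1, a chemokine receptor of effector cells, and none of either integrin gene. The Cx3cr1 cells number 31 to 60 a library. No member was called, beside 0.392% of all genes higher and 0.755% lower (1.25% and 0.5% with TMM factors), and 6 of the 9 members and 822 of all genes had an unadjusted p under 0.05. DESeq2 also called none. Zeb2 was at 30.6 ± 2.7 CPM in the integrin-positive cells and 61.7 ± 19.1 CPM in the Cx3cr1 cells, with no overlap (-0.97 ± 0.33, adjusted p = 0.174). Zfp683 had 699 UMIs in the first and 1 in the second, a ratio of 9.89 with an interval of 1.77 to 391 (adjusted p = 0.0837). Without TK1 or with TMM factors Zfp683 was called (adjusted p = 0.0414 and 0.0388), and with TMM factors Runx3 was called too, at 0.33 (adjusted p = 0.0314).

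Pairs of members were counted in the same 3-week graft cells at 1000 UMIs and set beside the product of their shares. Id2 and Ikzf2 met in 711 cells where the product gives 840, a ratio of 0.85 that ranged from 0.80 to 0.88 over the 5 libraries. In the rejecting graft the same pair met in 43 cells against 62.2. Zeb2 and Ikzf2 met in 93 cells against 67.2, with ratios of 1.19 to 1.72 over libraries, and Tbx21 and Ikzf2 in 149 against 126, with ratios of 1.07 to 1.32. In the rejecting graft Zeb2 and Ikzf2 met in 12 cells against 15.9, and in the 1-week accepted graft in 25 against 25.6, counts too small to read a direction from. Zfp683 and Bhlhe40 met in 29 cells against 42.6. Tbx21 and Eomes met in 9 cells against 16.4, with ratios from 0.17 to 1.44. Id2 and Runx3, the 2 most widespread members, met in 4035 cells against 4079. At this depth most pairs are too sparse to read.

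Over the 32 libraries, the members' log2(CPM + 1) values were correlated with each other and with 9191 genes, as a description, since libraries of a group share tissue, time and depth. Tbx21 and Prdm1 had r = 0.95, Id2 and Zfp683 r = 0.94, and Prdm1 and Bhlhe40 r = 0.94. Eomes was negative with all 8 others, from -0.35 with Runx3 to -0.70 with Prdm1. Runx3 and Ikzf2 were the loosest of the other pairs, at 0.48. The gene most like Prdm1 was Gng2 (0.98), followed by Pdcd1 (0.98) and Efhd2 (0.98). Bhlhe40 was most like Nr4a2 (0.98), Ifng (0.97) and Rgs1 (0.97), and Tbx21 most like Ttc39c (0.98), Fam129a (0.97) and Lgalsl (0.97). Zfp683 was most like Gcsam (0.98), Tmem273 (0.98) and Adrb1 (0.97), and Id2 most like Adgrg1 (0.97), Isca1 (0.97) and Adrb1 (0.97). Runx3 was most like Prrc2b, Gprin3 and Rrbp1 (0.96 each), Zeb2 most like Trps1 (0.94), Ahnak (0.93) and Cyfip1 (0.92), and Ikzf2 most like Klrc2 (0.91), Ctla2a (0.90) and Ptpn13 (0.90). The gene most like Eomes was Plekha1, at 0.88, followed by Cd53 (0.87) and Dse (0.86).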

How the data were processed

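Male mouse kidney allograft and spleen leukocytes were profiled with 10x Genomics 3′ chemistry. The authors aligned reads to mm10 with Cell Ranger, filtered cells on UMIs, genes and mitochondrial share, named cell types from clusters, and deposited UMI counts per gene and cell. The Cell Ranger version and the filter limits are not given in the sources used here, and doublets were not called again. The deposited counts were whole numbers, and CPM were computed here from them.

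Library tags in the cell barcodes served as replicates (32 libraries in 9 CD8 matrices), since the labels number no animals. UMIs were summed per library over cells carrying Cd8a or Cd8b1 and tested with edgeR 4.0.16 (filterByExpr, library totals, glmQLFit, glmQLFTest, Benjamini-Hochberg over all genes tested, threshold 0.05) in R 4.3.3, and the SE is the log2 fold change over the square root of F. The test was also run on simulated counts, with the same fixed dispersion for every gene and no library effects. That run does not show how the test behaves at the spread of these libraries. The 9 members were named in every comparison, with the 3 genes of highest Pearson r to each (mean of at least 10 CPM in 1 group) and up to 4 genes of highest mean CPM per list. The members and lists were chosen with earlier results of these data known. Shares were counted at 1000 UMIs per cell. Count ratios carry exact 95% intervals, and intervals and the floor of 3 counts cover counting error only. Alternatives were TMM factors, DESeq2 1.42.0, no filter, thinned cells, cells free of other-cell genes, all matrix cells, a gene span adjustment (31490 genes with a span, 10 bins), 1 fit of all groups, leaving out each library, other depths and another NK gate.

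Same-numbered graft and spleen libraries at 1 week deviated together weakly (r = 0.21, 0.16 and 0.32). The highest r with a spleen library of another number was 0.16, 0.09 and -0.21. A fit with the number as a block was added after seeing the data. The numbers come from the barcode tags, not from the sample labels.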

Additional observations from a re-analysis of the deposited data

Results flagged for a closer look

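Within groups of 4 to 10 libraries, 2 of 35 tested held a library far from the rest, where about 1 in 20 would by chance. Zeb2 stood at 15 CPM in the naive spleen library NS2 and at 5.25 to 7.85 CPM in the other 4. Zfp683 stood at 0.363 CPM in the 3-week spleen library TS2, from 1 UMI, and at 0 in the other 4.

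In 5 genes the same contrast differed between groups by a test of the difference itself. The gap of Ikzf2 between graft and spleen was wider in rejection than in acceptance by 2.34 on the log2 scale. The 3-week minus 1-week difference of the graft, less that of spleen, was 1.58 for Id2, 1.19 for Bhlhe40, 1.11 for Tbx21 and 0.69 for Runx3, and for Bhlhe40 and Tbx21 the spleen means fell.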

How the results depend on the processing

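Of 1701 member values under other settings 1586 kept their side of the threshold and, where called, their direction. Among these 1586, 40 values called under neither setting changed sign. Members called fell from 8 to 4 (TMM factors, DESeq2) between 3-week and 1-week grafts, and from 7 to 4 (TMM) and 3 (DESeq2) between rejecting and accepted grafts. The lower counts include a member newly called lower, Ikzf2 in the first contrast and Bhlhe40 in the second. With TMM factors 35% of all genes were higher and 35.4% lower in the first, and 27% and 25.4% in the second. Thinned cells gave 4 in place of 8 and 2 in place of 4 for 1-week and 3-week against naive spleen. Part of these losses are members that fell below the filter on low counts and were not tested. Thinned cells also gave 1 in place of 4 for dividing cells, and 3 (DESeq2 2) in place of 8 for Pdcd1 cells. All matrix cells gave 8 in place of 4 for 3-week against naive spleen and 7 in place of 4 for the change over time. Those all-cell counts mix cell types whose shares differ between matrices, and are not read as changes of CD8+ cells. TMM factors gave 2 in place of 0 for integrin against Cx3cr1 cells.

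Values that changed sign were, between 3-week and 1-week grafts, Bhlhe40 (-0.10 TMM, -0.11 DESeq2), Ikzf2 (-0.26 TMM, -0.26 DESeq2, -0.71 span), Zeb2 (-0.34 span) and Prdm1 (-0.079 span), and between rejecting and accepted grafts Prdm1 (-0.029 TMM, -0.030 DESeq2, -0.74 span), Zeb2 (-0.14 span) and Ikzf2 (-1.10 span). Others were Ikzf2 in 1-week graft against spleen (-0.15, all matrix cells), Zeb2 in 1-week against naive spleen (-0.16, cells free of other-cell genes), and Eomes (-0.50) and Runx3 (-0.28) in 3-week against naive spleen (all matrix cells). The cause was not tested.

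Over 98 fits that left out 1 library, the members called were 6 to 8 between 3-week and 1-week grafts, 8 to 9 and 9 to 9 in graft against spleen at 1 and 3 weeks, 7 to 8 between rejecting and accepted grafts, 6 to 8 in rejecting graft against spleen, 7 to 8 and 3 to 5 in 1-week and 3-week against naive spleen, 8 to 8 under the 24-week labels, 1 to 1 and 4 to 5 in the interactions with rejection and time, and 0 to 1, 2 to 3 and 4 to 8 in integrin, dividing and Pdcd1 cells. The replicate block at 1 week called Zeb2 (0.70, adjusted p = 0.000462) and changed no other member call there, and at 3 weeks, 24 weeks and in rejection, where same-numbered libraries did not all deviate together, it changed none.

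Shares of cells depend on depth. At 500 UMIs and unthinned, the 3-week graft gave Tbx21 3.21% and 14.1%, Zeb2 1.66% and 6.87%, Id2 25% and 63.7%, Prdm1 2.81% and 11.9%, Runx3 27.5% and 73.2%, Zfp683 0.750% and 3.98%, Bhlhe40 6.83% and 25.3%, and Ikzf2 5.40% and 18.1%, and Eomes 2.72% unthinned. The rejecting graft gave Tbx21 4.15% and 20.8%, Eomes 0.880% and 4.72%, Zeb2 3.48% and 15%, Id2 15.7% and 45.8%, Prdm1 2.33% and 12.5%, Runx3 29.4% and 72.9%, Ikzf2 7.48% and 24.7%, and Bhlhe40 17.1% unthinned. Naive spleen gave Tbx21 0.337% and 2.88%, Eomes 1.92% and 14.6%, Zeb2 0.430% and 1.29%, Id2 4.93% and 26.4%, Runx3 11% and 57.0%, Ikzf2 1.03% and 6.93%, and Prdm1 0.762% and Bhlhe40 0.740% unthinned. Naive NK cells gave Tbx21 8.31% and 39.9%, Eomes 17.0% and 61.1%, Zeb2 36.6% and 80.9%, Id2 34.5% and 83.1%, Prdm1 3.55% and 15.5%, Runx3 15.6% and 54.7%, Bhlhe40 7.59% and 31.6%, Ikzf2 1.39% and 7.56%, and Zfp683 0.283% unthinned. Rejecting graft NK cells gave Tbx21 12.1% and 33.5%, Eomes 16.6% and 38.9%, Zeb2 25.6% and 47.5%, Id2 29.4% and 60.1%, Prdm1 3.35% and 11.7%, Runx3 14.1% and 43.7%, Ikzf2 3.83% and 14.2%, and Bhlhe40 16.3% unthinned. With a gate of 2 of 4 receptor genes they gave Eomes 24.4%, Zeb2 42.1%, Id2 36.4% and Runx3 30.0%.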
